A study of Mus musculus with 6 samples.

Results

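The genes described here are the 36 basement membrane components of the kidney count table: the 6 collagen IV chains, 10 laminin chains, both nidogens, perlecan (Hspg2), agrin (Agrn), the basement membrane zone collagens Col15a1 and Col18a1, and proteins that bind, anchor or modify the sheet. They were taken by gene symbol from a fixed list, and all 36 were found among the 34714 rows of the table. All 36 also passed the filter on low counts that left 18927 genes for testing. Expression was measured by RNA sequencing of whole kidneys after unilateral ureteral obstruction (UUO), in which the left ureter is closed with silk ligatures under pentobarbital and the kidney scars. Both groups were male mice, operated at 8 weeks of age, with kidneys taken 10 days later. The wild-type group, of 3 libraries, is given as C57BL/6J. The other 3 libraries come from miR-92b-/- mice, a purchased line (C57BL/6JGpt- Mir-92bem22Cd549/Gpt) in which the microRNA gene is deleted in every cell of the body. The labels do not say that the wild-type mice were littermates of the knockout, and the kidneys are read as obstructed from the treatment label although the protocol text calls ligated kidneys nonfibrotic controls. Kidneys from sham surgery were not analysed here, so the values compare genotypes within obstruction and not obstruction with health.

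A basement membrane is a thin sheet of matrix under epithelia and endothelia and around smooth muscle and fat cells. Laminin trimers polymerise at the cell surface, collagen IV trimers form a covalently crosslinked network, and nidogens and perlecan link both layers. Collagen IV exists as α1α1α2 trimers in nearly all basement membranes, as α3α4α5 trimers in the mature glomerular and some tubular basement membranes, and as α5α5α6 trimers in a few sites such as Bowman's capsule. In the kidney the glomerular basement membrane is built by podocytes and endothelial cells, and in fibrosis the tubular membranes thicken and fibroblasts also make collagen IV.

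The deleted gene, Mir92b, gives the mature microRNA miR-92b-3p (chromosome 3, 89227126 to 89227147, minus strand, GRCm38.p6), whose sequence is shown because its seed decides which transcripts it can pair with. Capitals mark the seed, bases 2 to 8, which is the same in miR-25-3p, miR-92a-3p and miR-32-5p, microRNAs of other genes. The count table has no row for this microRNA, and its loss was therefore not checked in these libraries. Sequences are from RefSeq, 5′ to 3′.
mmu-miR-92b-3p: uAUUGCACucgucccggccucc
mmu-miR-25-3p: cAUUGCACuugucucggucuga
mmu-miR-92a-3p: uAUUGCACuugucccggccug
mmu-miR-32-5p: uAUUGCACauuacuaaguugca

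Matches to that seed were counted in the 36 genes and in all tested genes. In the longest GENCODE M21 3′ UTR of each gene, matches to the full seed followed by A (8mer), the full seed alone (7mer-m8) or bases 2 to 7 followed by A (7mer-A1) were searched. At least 1 was found in 3 of the 36 genes (8.33%), against 13.4% of the 15384 tested genes with a 3′ UTR. An 8mer was found in 0 of the 36 and in 408 of the 15384. The shares were not tested against each other, and 36 genes are few for such a comparison. The 3 genes are Frem2, Npnt and Dag1, and their sites are shown in capitals on the transcript strand within the neighbouring bases (GRCm38, all on the minus strand). The Frem2 site is a 7mer-A1 at chr3:53514120-53514126, the Npnt site a 7mer-m8 at chr3:132884270-132884276, and the Dag1 sites are 7mer-A1 matches at chr9:108206179-108206185 and chr9:108205634-108205640.
Frem2: gcctagcctccTGCAATAggaaatgtcag
Npnt: ggcctgttttgGTGCAATcccagtgaaca
Dag1, first site: tttggtgaagaTGCAATAtttttatgtca
Dag1, second site: ggaatgcctttTGCAATAatgtatccctt
As log2 fold changes of the knockout against the wild type, the median was 0.30 for the 3 genes with a site and 0.27 for the 33 without one, against 0.085 and 0.0029 over all tested genes. A match in these windows is a description of letters and does not show pairing.

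Most of the 36 genes had a higher mean in the knockout, but none passed the test over all genes. Values are in CPM, read counts brought to a common library size with TMM scaling, and the test is the edgeR quasi-likelihood F test with Benjamini-Hochberg adjustment over all 18927 genes. The log2 fold change was above 0 for 30 of 36 genes (83.3%), against 47.7% of all genes tested. The median over the 36 was 0.28, and over all genes tested it was -0.02. With edgeR, 0 of the 36 passed an adjusted p of 0.05, the background over all genes being 0%, and the smallest adjusted p among them was 0.627, a value that the adjustment gives to many genes at once. At an unadjusted p under 0.05, 9 of the 36 were higher and 0 lower. Of all 18927 genes tested, 829 (4.38%) were higher and 666 lower. In 11 of the 36 every knockout library lay above every wild-type library, against 8.95% of all genes, and in 0 every knockout library lay below, against 7.20% of all genes. DESeq2 called 1 of the 36, Col15a1, where it called 0.334% of all genes.

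**Figure D1:**
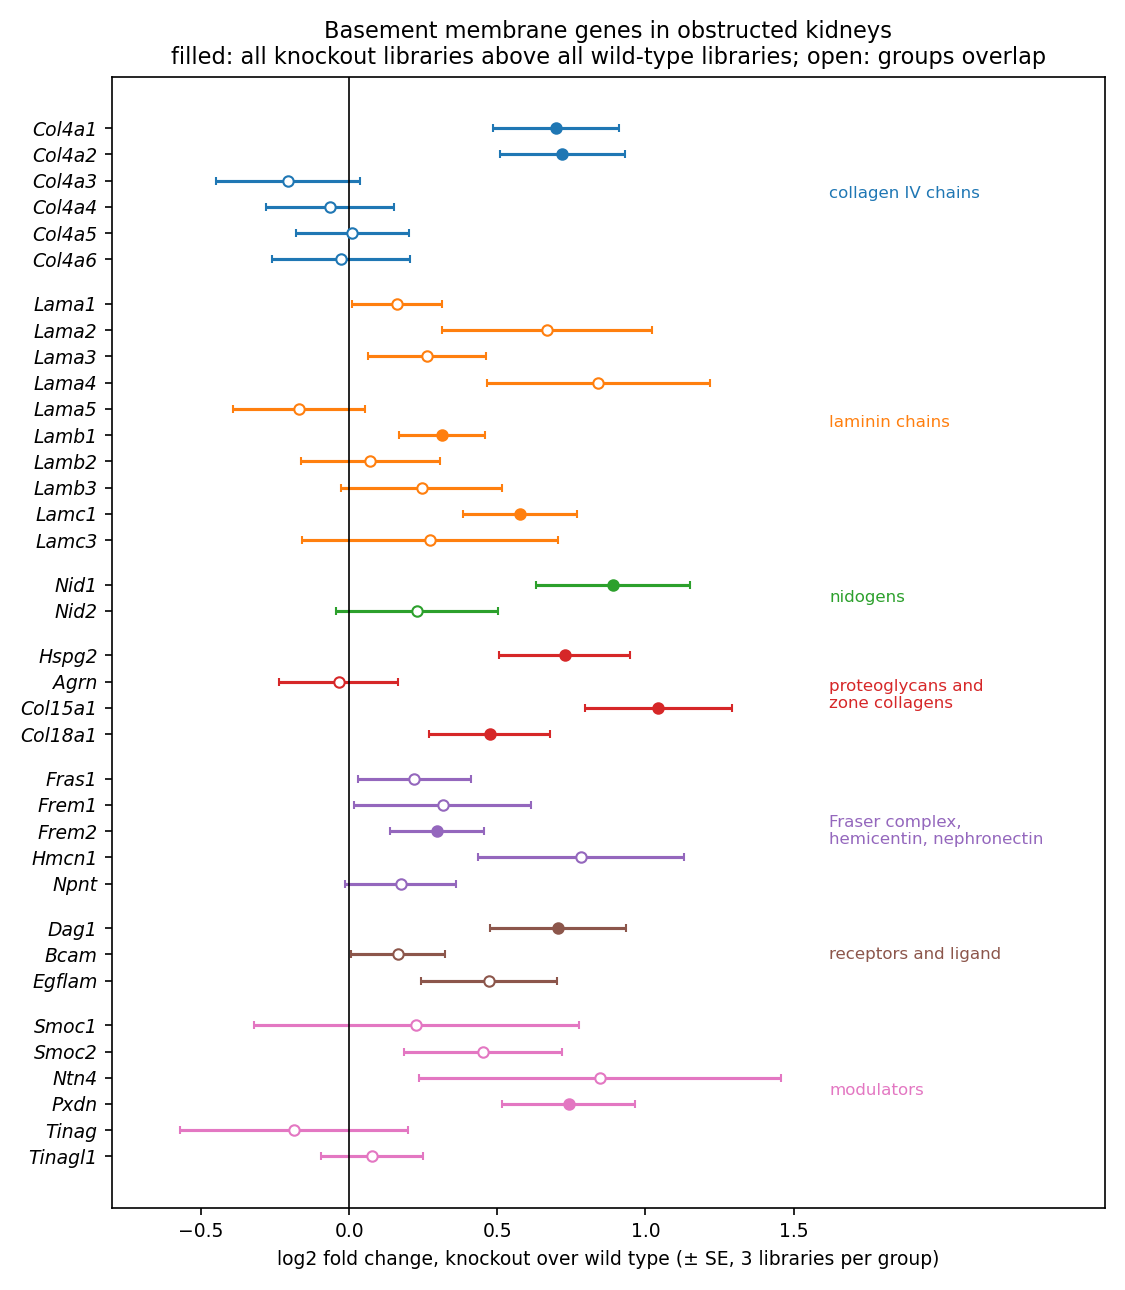
Log2 fold change of knockout over wild type for each of the 36 genes, grouped by role, with bars of ± 1 SE from edgeR (3 libraries per group). Filled points are the 11 genes whose 6 libraries separate by genotype. Col15a1 lies farthest to the right at 1.04, and the collagen IV chains split into Col4a1 and Col4a2 at 0.70 and 0.72 and the other 4 chains from -0.21 to 0.01.

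These counts lean on single libraries and partly on transcript length. Without knockout replicate 2, 5 of the 36 were higher at an unadjusted p under 0.05 in place of 9 (Col4a2, Pxdn, Col15a1, Nid1 and Hspg2), and leaving out replicate 3 of both groups also gave 5 (Dag1, Col4a2, Col4a1, Col15a1 and Hspg2). Without wild-type replicate 2, the genes with knockout above wild type in every library numbered 17 in place of 11, against 14.0% of all genes. Without replicate 3 of either group they numbered 13, and 4 of the 36 then lay below in every knockout library, where 24.9% and 24.3% of all genes did so. Among the 11 genes that separate by genotype, knockout replicate 2 was the highest knockout library for 9 and knockout replicate 1 the lowest for 9. The 36 transcripts have a median length of 6270.5 nt against 3142 nt for all genes tested, and long transcripts tend to have higher fold changes in this comparison. With that length trend removed, the 36 had a median of 0.17, the median of all genes -0.0086, and 7 of the 36 were higher at an unadjusted p under 0.05. The share of all genes at that p was not counted with libraries left out or the trend removed, so these counts have no background beside them.

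The collagen IV genes lie in pairs that are transcribed away from each other, and their starts are shown to place the members of each pair. Col4a1 (chromosome 8, 11198423 to 11312889, minus strand, RefSeq coordinates on GRCm38) and Col4a2 (chromosome 8, 11312805 to 11449287, plus strand) encode the α1 and α2 chains, and by the first bases of their GENCODE M21 transcripts they overlap by 22 bases. Col4a4 and Col4a3, for the α4 and α3 chains, lie head to head on chromosome 1 with 71 bases between their first bases, and Col4a6 and Col4a5, for α6 and α5, on chromosome X with 1308 bases between. The RefSeq extents of Col4a1 and Col4a4 reach beyond these starts, and by those extents Col4a1 and Col4a2 share a longer stretch and Col4a4 and Col4a3 overlap, so the distances depend on the annotation. The stretch shared by the GENCODE starts of Col4a1 and Col4a2 and the gap between Col4a4 and Col4a3 are given below on the plus strand, from the RefSeq promoter table. Capitals mark GGGCGG or CCAAT on either strand, the core motifs of Sp1 and of CCAAT-binding factors.
Col4a1 and Col4a2, chr8:11312805-11312826: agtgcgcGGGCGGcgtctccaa
Col4a4 and Col4a3, chr1:82586850-82586920: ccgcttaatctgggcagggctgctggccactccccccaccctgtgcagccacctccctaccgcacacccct
GGGCGG stands in the first stretch and neither motif in the second, and the windows around the starts of Col4a5 and Col4a6 also hold GGGCGG. Over windows of 250 bases before to 50 after the start, GGGCGG (either strand) was found in 21 of 34 windows of the 26 member genes in the table (61.8%) and in 35.7% of all 32851 windows. CCAAT was found in 14 of the 34 (41.2%), among them windows of Col4a1, Col4a2 and Col4a5, and in 37.4% of all windows. The 32851 windows were not limited to the genes tested for expression.

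Col4a1 and Col4a2, the chains of the ubiquitous trimer, were higher in every knockout library. Col4a1 measured 779, 973 and 894 CPM in the wild type and 1193, 1669.6 and 1429.7 CPM in the knockout. The groups did not overlap, with means of 882 ± 97.3 against 1431 ± 238 CPM (SD, n = 3), a log2 fold change of 0.70 ± 0.21 (SE) and an edgeR adjusted p of 0.627. Col4a2 measured 479, 502 and 405 CPM in the wild type and 604, 915 and 764 CPM in the knockout. It too separated by genotype, with means of 462 ± 51.1 against 761 ± 155 CPM (SD, n = 3) and a log2 fold change of 0.72 ± 0.21 (edgeR adjusted p = 0.627). Leaving out single libraries moved the fold change of Col4a1 between 0.57 and 0.81 and that of Col4a2 between 0.56 and 0.86.

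The other 4 chains overlapped between the groups. Col4a3, the chain that carries the Goodpasture antigen, measured 213, 208 and 185 CPM in the wild type and 210.4, 203 and 112 CPM in the knockout. Knockout replicate 3 was the lowest of the 6 and the other 5 lay close together, and the log2 fold change was -0.21 ± 0.24 (edgeR adjusted p = 0.792). Col4a4 measured 219.9, 237 and 193 CPM in the wild type and 249, 225 and 147 CPM in the knockout, again with knockout replicate 3 lowest, at -0.06 ± 0.21. Col4a5, the X-linked chain mutated in most Alport syndrome, measured 77.1, 87.4 and 70.5 CPM in the wild type and 94.7, 83.0 and 59.1 CPM in the knockout, at 0.01 ± 0.19. Col4a6 was the weakest chain, with 17.8, 19.5 and 10.9 CPM in the wild type and 16.8, 16.2 and 14.3 CPM in the knockout, at -0.03 ± 0.23. Without knockout replicate 3 the fold changes of Col4a3 and Col4a4 were 0.03 and 0.13, so their sign rests on that library, and that of Col4a4 also turned without wild-type replicate 2.

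Taken within a library, the ratios of Col4a1 to Col4a2 and of Col4a3 to Col4a4 overlapped between the groups. The ratios of Col4a1 to Col4a3 and of Col4a2 to Col4a4 separated by genotype, and that of Col4a1 to Col4a5 overlapped. On CPM per kb of transcript, Col4a1 over Col4a2 was 1.58, 1.89 and 2.15 in the wild-type libraries and 1.93, 1.78 and 1.82 in the knockout libraries, and Col4a3 over Col4a4 was 1.14, 1.04 and 1.13 in the wild-type libraries and 0.999, 1.06 and 0.896 in the knockout libraries. Both ratios overlapped between the groups. Col4a1 over Col4a3 was 4.74, 6.04 and 6.25 in the wild-type libraries and 7.33, 10.6 and 16.6 in the knockout libraries, and Col4a2 over Col4a4 was 3.42, 3.32 and 3.28 in the wild-type libraries and 3.80, 6.36 and 8.13 in the knockout libraries. These ratios were higher in every knockout library, by the least in knockout replicate 1. In the wild type alone, Col4a2 over Col4a4 was steadier than Col4a1 over Col4a2, at 3.34 ± 0.07 against 1.88 ± 0.29 (SD, n = 3). The ratios were not tested. Col4a1 made up 46.5 to 53.8% of all collagen IV transcripts per kb in the wild type and 53.0 to 57.9% in the knockout, and Col4a3 8.43 to 9.82% and 3.50 to 7.23%.

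**Figure D2:**
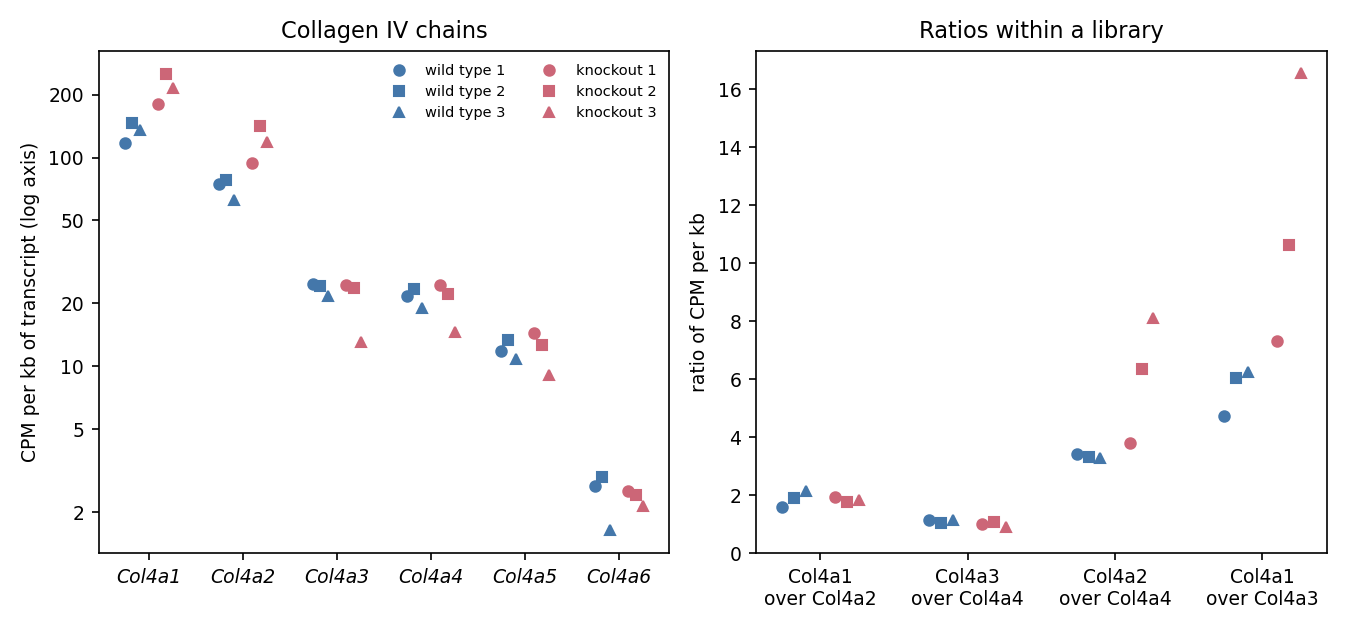
Left, the level of each collagen IV chain in each library, in CPM per kb of the longest transcript on a log axis. Right, ratios of these levels within a library on a linear axis from 0. Col4a1 over Col4a5, which overlaps between the groups, is not drawn. The ratios within a pair overlap between the groups, and Col4a1 over Col4a3 runs from 4.74 to 6.25 in the wild type and from 7.33 to 16.6 in the knockout.

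Laminins are trimers of an α, a β and a γ chain, and the chain makeup names the isoform. Per kb of transcript, Lama5, the α5 chain of most adult kidney basement membranes, was the leading α chain in every library, at 49.8 ± 12.9 CPM per kb in the wild type and 44.3 ± 3.09 in the knockout (SD, n = 3). It made up 77.0 to 81.6% of the α chain transcripts in the wild type and 65.4 to 75.9% in the knockout. Lamb1 led the β chains, at 53.9 ± 3.37 CPM per kb in the wild type and 67.0 ± 1.16 in the knockout, ahead of Lamb2, the β chain of the mature glomerular membrane, at 27.4 ± 8.10 CPM per kb in the wild type and 28.7 ± 4.31 in the knockout. Lamc1, the γ chain of nearly all laminins, stood at 14.4 ± 1.55 CPM per kb in the wild type and 21.5 ± 4.74 in the knockout, below the leading α and β chains, and Lamc3 at 4.45 ± 1.28 CPM per kb in the wild type and 5.38 ± 3.55 in the knockout. The other α chains, Lama1, Lama2, Lama3 and Lama4, had means of 2.24 to 4.17 CPM per kb in the wild type, and Lamb3 3.96. In the wild type Lama1 lay below Lama2, Lama3 and Lamb3 in every library, and the values of the other 4 overlapped. Comparisons of level between genes rest on the longest annotated transcript of each gene, which may not be the one expressed.

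Between genotypes, 9 of the 10 laminin chains had a log2 fold change above 0, with a median of 0.27. That median was 0.09 without knockout replicate 2 and 0.46 without wild-type replicate 2. Lamc1 measured 113, 120.0 and 96.9 CPM in the wild type and 125, 172 and 196 CPM in the knockout. Knockout replicate 1 lay only just above the highest wild-type library, and the log2 fold change was 0.58 ± 0.19 (SE, edgeR adjusted p = 0.627). Lamb1 measured 289.8, 318 and 327 CPM in the wild type and 379.7, 393 and 389 CPM in the knockout. Its groups were tight and apart, with means of 312 ± 19.5 against 387 ± 6.73 CPM (SD, n = 3) and a small log2 fold change of 0.31 ± 0.15. The edgeR p of Lamb1 was 0.064 unadjusted and 0.627 adjusted, and its fold change was 0.19 with the length trend removed. Lama4, an α chain of vessels and mesenchyme, measured 23.8, 15.0 and 9.72 CPM in the wild type and 18.1, 29.1 and 39.6 CPM in the knockout, with overlapping groups, at 0.84 ± 0.38. Its value was 0.55 without knockout replicate 3 and 0.29 without replicate 3 of either group. Lama2, the α chain of muscle and mesenchyme, owed its 0.67 ± 0.36 mostly to knockout replicate 2 at 103 CPM, since the other 5 libraries lay at or below 49.8 CPM and the value without that library was 0.12. Lamc3 likewise stood at 0.27 ± 0.43 and at -0.42 without knockout replicate 2.

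The chains that overlapped between groups included the main α chain. Lama5 measured 702, 589 and 409.7 CPM in the wild type and 520.4, 528 and 464 CPM in the knockout, at -0.17 ± 0.22, and its widest spread was within the wild type. Lamb2 was at 0.07 ± 0.24, Lama1 at 0.16 ± 0.15, Lama3 at 0.26 ± 0.20 and Lamb3 at 0.25 ± 0.27. Lamc1 over Lama5, per kb, was 0.241, 0.304 and 0.353 in the wild-type libraries and 0.358, 0.487 and 0.630 in the knockout libraries, so γ1 stood higher against α5 in all knockout libraries, by a small margin in knockout replicate 1. Lamb1 over Lama5 overlapped between the groups, at 0.813, 1.06 and 1.57 in the wild-type libraries and 1.44, 1.46 and 1.65 in the knockout libraries. Lamb1 over Lamb2 ran from 1.43 to 2.98 in the wild type, a range that holds all 3 knockout values.

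**Figure D3:**
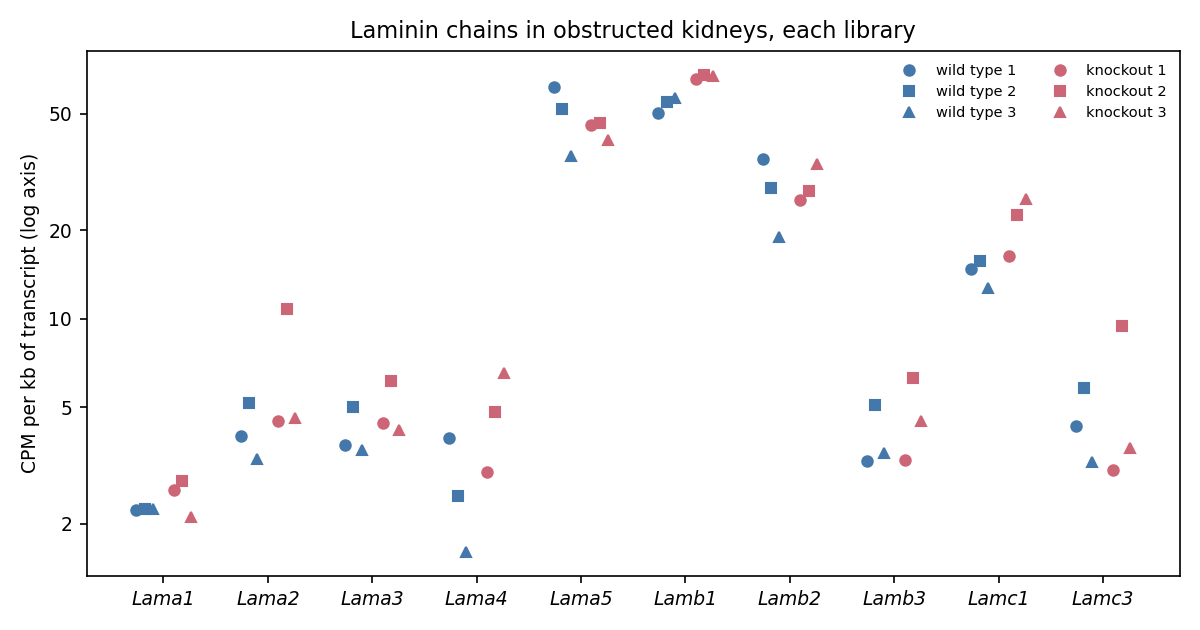
Level of each laminin chain in each library, in CPM per kb of the longest transcript on a log axis, with wild-type points on the left and knockout points on the right of each gene. Lamb1 and Lamc1 separate by genotype, and knockout replicate 2 stands alone at the top for Lama2 and Lamc3.

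Nidogens bridge laminin γ1 and collagen IV. Nid1 measured 142, 185 and 153 CPM in the wild type and 188, 369.7 and 331 CPM in the knockout. Knockout replicate 1 lay within a few CPM of the highest wild-type library while replicates 2 and 3 lay far above, and the log2 fold change was 0.89 ± 0.26 (SE, edgeR adjusted p = 0.627). Nid2 measured 67.6, 47.3 and 37.5 CPM in the wild type and 42.9, 57.4 and 78.2 CPM in the knockout, with overlapping groups, at 0.23 ± 0.27, and at -0.02 without knockout replicate 3. Nid1 over Nid2, per kb, was 1.68, 3.13 and 3.25 in the wild-type libraries and 3.51, 5.16 and 3.39 in the knockout libraries. In GENCODE M21, 8.45% of the exonic bases of Nid2 are shared with exons of Rtraf on the opposite strand, whose reads cannot be told apart if counting ignored strand.

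Among the proteoglycans and basement membrane zone collagens, 3 of 4 had every knockout library above every wild-type library, against 8.95% of all genes tested. Col15a1 (chromosome 4, 47207655 to 47313167, plus strand), whose product anchors the basement membrane to the fibrillar matrix beneath it, measured 148, 162 and 121 CPM in the wild type and 217, 403 and 269 CPM in the knockout. The groups stood apart, the means were 144 ± 20.7 against 296 ± 95.9 CPM (SD, n = 3), and the log2 fold change was 1.04 ± 0.25 (SE, edgeR adjusted p = 0.627). With DESeq2 its adjusted p was 0.0357, and with limma-voom 0.266. The fold change was 0.75 without knockout replicate 2, which held the highest value. Hspg2, perlecan, measured 177, 176 and 114 CPM in the wild type and 211, 299 and 263 CPM in the knockout, at 0.73 ± 0.22. Col18a1, the precursor of endostatin, measured 567, 732 and 622 CPM in the wild type and 772, 1057 and 839 CPM in the knockout, at 0.47 ± 0.20. Agrn, agrin, a main heparan sulphate proteoglycan of the glomerular membrane, was more abundant than Hspg2 per kb (111 ± 19.8 CPM per kb in the wild type and 108 ± 6.00 in the knockout) and had nearly equal group means, at -0.04 ± 0.20 (edgeR adjusted p = 0.961).

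Fras1, Frem1 and Frem2 form the Fraser complex, which fixes embryonic epithelia to their stroma, nephronectin (Npnt) binds integrin α8β1 in kidney development, and hemicentin (Hmcn1) links adjacent membranes. All 5 had a log2 fold change above 0, from 0.17 for Npnt to 0.78 for Hmcn1. Hmcn1 measured 12.2, 13.2 and 7.59 CPM in the wild type and 10.2, 22.9 and 23.5 CPM in the knockout. Knockout replicates 2 and 3 were high and replicate 1 lay among the wild type, at 0.78 ± 0.35 (edgeR adjusted p = 0.627). Frem2 measured 16.9, 22.7 and 21.4 CPM in the wild type and 24.7, 26.6 and 23.6 CPM in the knockout, which separated by genotype by a narrow margin, at 0.30 ± 0.16. With the length trend removed it stood at 0.08, its transcript being 12348 nt long. Fras1 (0.22 ± 0.19), Frem1 (0.32 ± 0.30) and Npnt (0.17 ± 0.19) overlapped between groups. Npnt, with a match to the miR-92b-3p seed, measured 156, 243 and 217 CPM in the wild type and 239, 234 and 223 CPM in the knockout.

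The receptors are dystroglycan (Dag1), which holds laminin, agrin and perlecan at the cell surface, and Bcam, a receptor for laminin α5. Dag1 measured 152, 279 and 234 CPM in the wild type and 348, 388 and 347 CPM in the knockout. The knockout libraries were tight and all above the wild type, in which replicate 1 was low, and the log2 fold change was 0.70 ± 0.23 (SE, edgeR adjusted p = 0.627). Without wild-type replicate 1 it was 0.49. Egflam, pikachurin, a dystroglycan ligand, measured 25.9, 30.3 and 20.9 CPM in the wild type and 25.5, 44.4 and 37.0 CPM in the knockout, at 0.47 ± 0.23, and at 0.28 without knockout replicate 2. Bcam had the highest level per kb of the 36 in the wild type (157 CPM per kb) and, at 0.16 ± 0.16, overlapping groups.

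Of the proteins that modify the sheet, peroxidasin (Pxdn), which forms the sulfilimine crosslinks between collagen IV trimers, separated by genotype. It measured 127, 120.1 and 99.9 CPM in the wild type and 141, 189 and 251 CPM in the knockout, with means of 116 ± 14.2 against 194 ± 55.2 CPM (SD, n = 3) and a log2 fold change of 0.74 ± 0.22 (SE, edgeR adjusted p = 0.627). Leaving out replicate 3 of both groups gave 0.42. The calcium-binding protein Smoc2 measured 87.7, 139 and 82.4 CPM in the wild type and 114, 187 and 122 CPM in the knockout, at 0.45 ± 0.27, with knockout replicate 2 highest. Without that library Smoc2 was at 0.19, and without wild-type replicate 2 at 0.73. Netrin-4 (Ntn4), which binds laminin γ1 and disrupts laminin networks, measured 9.60, 50.8 and 49.3 CPM in the wild type and 96.5, 65.6 and 35.3 CPM in the knockout. Wild-type replicate 1 was far below the other libraries and the knockout values spread widely, and its 0.85 ± 0.61 became 0.39 without that library. Tinag, of the tubular basement membrane, and its relative Tinagl1 stood at -0.19 ± 0.38 and 0.08 ± 0.17, and Smoc1 was the least abundant of the 36 in the knockout, per kb, with 1.21 to 4.63 CPM over the 6 libraries.

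**Figure D4:**
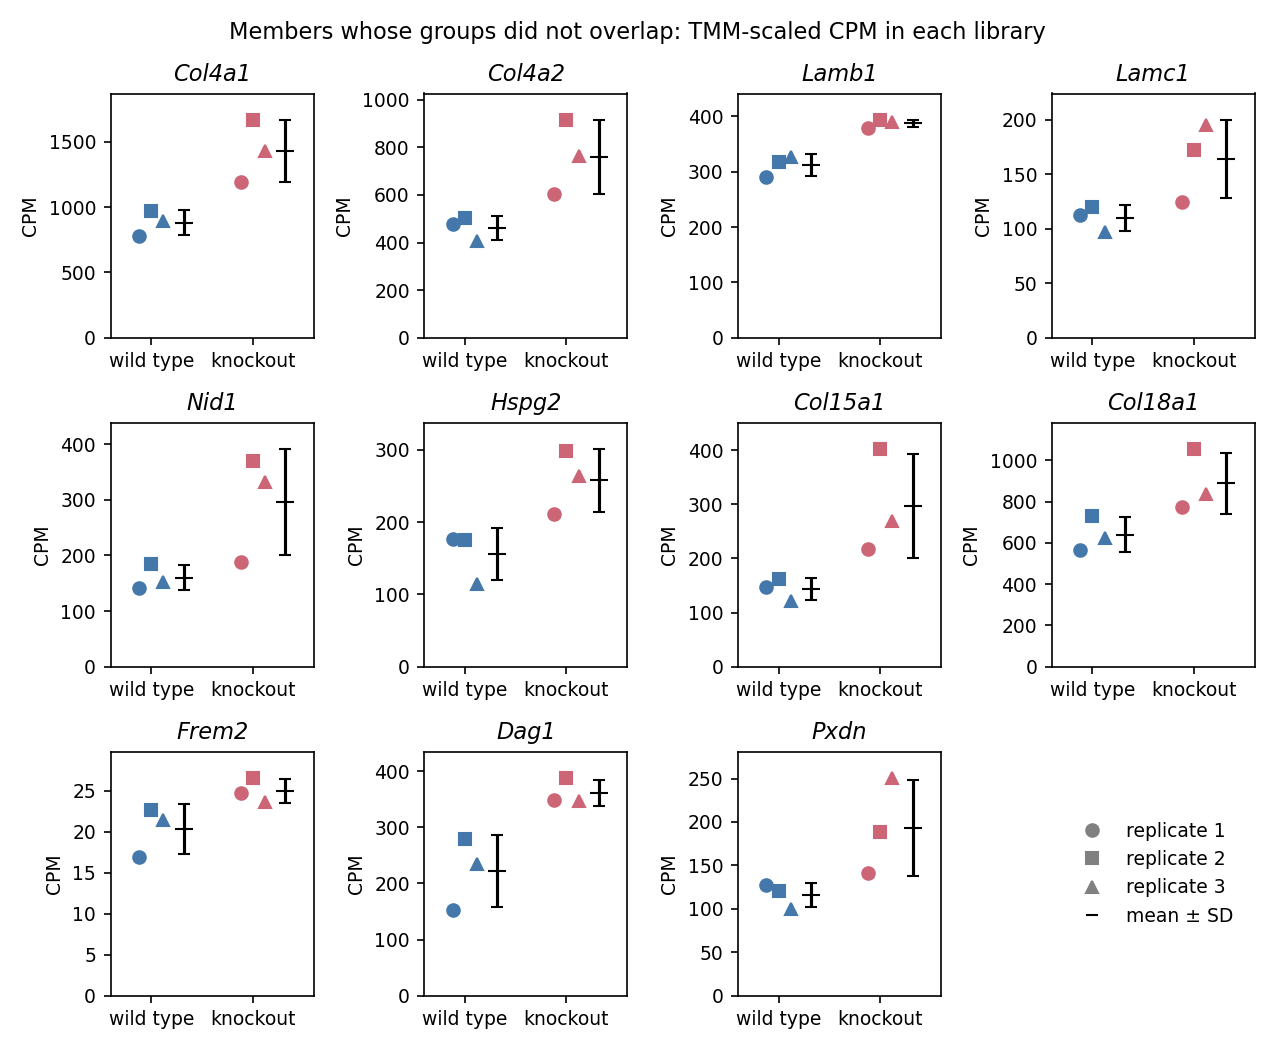
CPM in each library, on axes from 0, for the 11 genes in which every knockout library lay above every wild-type library, with the mean ± SD of each group (n = 3). Knockout replicate 2 is the highest point for 9 of the 11, and for Nid1 and Lamc1 knockout replicate 1 lies just above the wild type.

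The same tests were read for 54 further genes of basement membrane biology, grouped by function. None of the tested ones passed the edgeR adjusted threshold. Of 13 tested other components (Frem3 was filtered out), 10 were above 0 and the median was 0.48 on the log2 scale, and 0.19 without replicate 3 of either group. Ntn3 and Sparc, a collagen IV-binding protein, stood at 0.74 ± 0.30, apart by genotype, and 0.69 ± 0.34, with overlap. Leaving out replicate 3 of both groups gave 0.44 for Ntn3 and 0.19 for Sparc. Of 15 receptors and linkers, 13 were above 0 (median 0.21, from 0.11 without wild-type replicate 3 to 0.42 without knockout replicate 1), led by the collagen receptor Ddr2 at 0.70 ± 0.28, with the integrin chains Itgb1 at 0.45 ± 0.22 and Itga6 at 0.34 ± 0.18. All 3 overlapped between the groups, and without replicate 3 of either group Ddr2 was at 0.40.

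Of the 12 genes for folding, export and crosslinking of collagen IV, 11 were above 0, with a median of 0.22, and of 0.14 without knockout replicate 3. Loxl2, which crosslinks its 7S domain, measured 79.4, 67.3 and 52.7 CPM in the wild type and 69.0, 133 and 152 CPM in the knockout. Knockout replicate 1 lay among the wild type, and its log2 fold change of 0.83 ± 0.29 became 0.46 without replicate 3 of either group. Colgalt1, a collagen galactosyltransferase, was at 0.28 ± 0.15, narrowly apart by genotype, and the lysyl hydroxylase Plod1 at 0.34 ± 0.19. Of 13 proteases and inhibitors, 11 were above 0, with a median of 0.46. Against 8.95% of all genes tested, 3 of the 13 had every knockout library above every wild-type library. These were the gelatinase Mmp2 (0.93 ± 0.28), its inhibitor and activation partner Timp2 (0.76 ± 0.22), and heparanase (Hpse), which cuts heparan sulphate, with 3.46, 3.42 and 3.98 CPM in the wild type and 5.11, 6.16 and 10.0 CPM in the knockout, at 0.97 ± 0.30 (edgeR adjusted p = 0.627). Leaving out replicate 3 of both groups gave 0.67 for Mmp2, 0.51 for Timp2 and 0.72 for Hpse. Single libraries weighed on the median of this list, which was 0.23 without knockout replicate 3 and 0.75 without wild-type replicate 1.

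Basement membrane genes are made by many cell types, and in whole kidneys fewer cells of a type cannot be told apart from less RNA per cell. The summed CPM of 10 fibroblast and myofibroblast markers was 4079.8, 2603 and 1864 in the wild type and 2527, 4776 and 7373 in the knockout. All 10 were above 0 on the log2 scale (median 0.77). Leaving out replicate 3 of both groups gave a median of 0.09, and the range over single libraries left out was 0.26 (knockout replicate 3) to 1.07 (wild-type replicate 1). The sums of the groups overlapped. The sums of 9 endothelial markers were 824, 447 and 444 against 404, 654 and 1083 CPM, with 8 of 9 above 0. Their median of 0.31 turned to -0.03 without knockout replicate 3 and to -0.19 without replicate 3 of either group. The 8 podocyte markers, of which 4 were above 0, summed to 596 to 633 CPM in the wild type and 605 to 714 CPM in the knockout. The 8 proximal tubule markers, 2 of them above 0, summed to 2679, 3261 and 6096 against 4575, 3224 and 1791 CPM, and the 6 markers of thick limb and distal tubule, none above 0, to 1781 to 4959 against 934 to 4925 CPM. The medians of both tubule lists also turned without replicate 3 of either group, from -0.27 to 0.45 for the proximal tubule and from -0.20 to 0.16 for the thick limb and distal tubule. All 7 macrophage markers were above 0, with sums of 755 to 782 against 855 to 974 CPM, which did not overlap. Every knockout library lay above every wild-type library for 3 of the 7, against 8.95% of all genes. At an unadjusted edgeR p under 0.05, 2 of the 7 were higher, against 4.38% of all genes, and 0 passed the adjusted threshold. No marker of these lists was at 0 in any library, except Pvalb of the distal tubule in 2. The part of these cell types in the differences above was not tested.

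**Figure D5:**
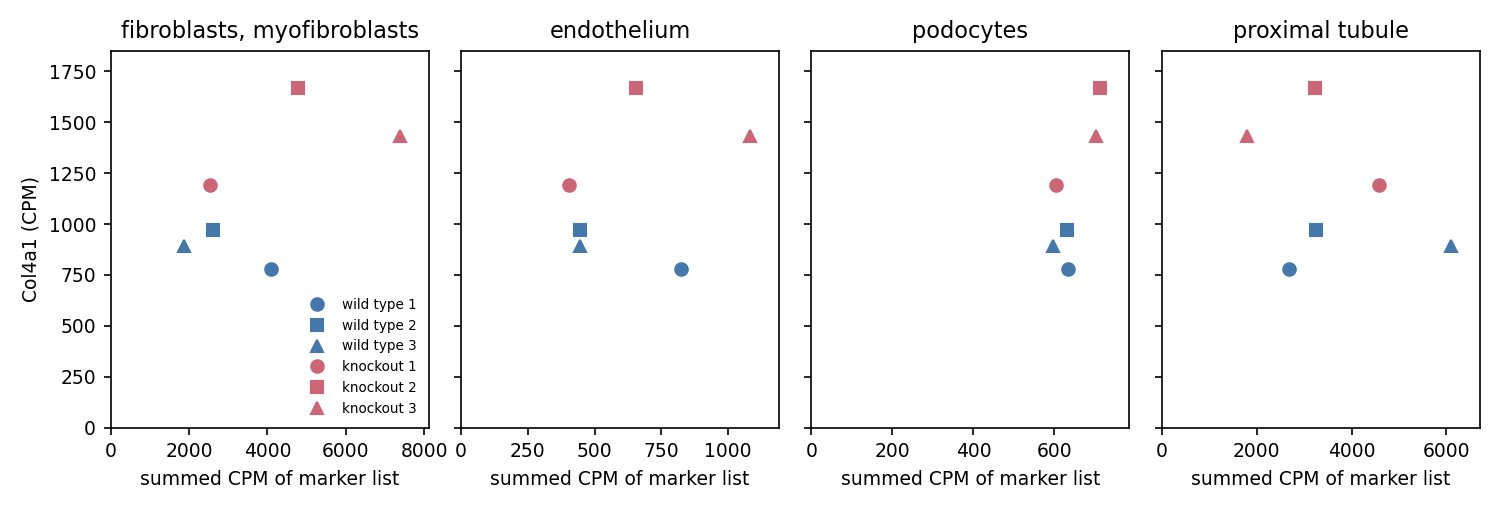
Col4a1 in CPM (vertical axis) against the summed CPM of 4 marker lists (horizontal axes, from 0), 1 point per library. The fibroblast sums overlap, from 1864 to 4079.8 CPM in the wild type and from 2527 to 7373 CPM in the knockout.

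The remaining marker lists also varied between libraries, and the sum of the skeletal muscle markers separated by genotype at low counts. The part of these lists in the results was not tested. Adipocyte markers, of which 3 of 5 were tested and Lep was at 0 in 2 libraries, summed to 57.2 to 100.3 CPM in the wild type and 42.8 to 267 CPM in the knockout, highest in replicate 1. The 5 urothelial markers summed to 37.4 to 237 CPM in the wild type and 42.6 to 151 CPM in the knockout. The 5 skeletal muscle markers summed to 4.51 to 4.92 CPM in the wild type and 0.644 to 0.914 CPM in the knockout, with Myh4 and Myh1 at 0 counts in all 3 knockout libraries. Their means over the 6 libraries were 0.295 to 0.954 CPM. Every knockout library lay below every wild-type library for 4 of the 5, against 7.20% of all genes. DESeq2 called 4 of the 5, where it called 0.334% of all genes, and edgeR 0. The 8 collecting duct markers were all below 0 and summed to 326 to 434 against 184 to 352 CPM, with overlap. Every knockout library lay below every wild-type library for 2 of the 8, against 7.20% of all genes. DESeq2 called 1 of the 8, where it called 0.334% of all genes, and edgeR 0. The 8 markers of smooth muscle and mesangium, 5 above 0, summed to 364 to 1135 against 309 to 1577 CPM. Library totals ran from 38738204 to 51932509 counts in the wild type and from 44476507 to 50769801 in the knockout. Whether each replicate is a separate animal is not stated, so the p-values measure the spread between these libraries only.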

How the data were processed

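RNA was measured in 3 wild-type and 3 knockout libraries from obstructed kidneys. A table of raw read counts by gene symbol was deposited by the authors, with 1 column for each library and no scaling, per the labels. Libraries were made with a SMARTER mRNA kit. GRCm38 and mm10, names of 1 build, are named in the submitters' processing notes. Not given in the sources used here are the aligner, the counter and its strand setting. Exons of 6 of the 36 genes overlap those of another gene, over 0.221 to 8.45% of their bases. Knockout columns give the parts of their descriptions in another order and were matched by those parts and the number.

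Genes were filtered with filterByExpr, scaled by TMM and tested in edgeR 4.0.16 (R 4.3.3) by quasi-likelihood F tests (robust fit, group only), adjusted over all 18927 genes. Standard errors are the log2 fold change over the root of F. Levels between genes use CPM per kb of the longest GENCODE M21 transcript (found for 89.7% of the tested genes). The pipeline was tested on simulated data. Alternatives used DESeq2 1.42.0 and limma 3.58.1, other scalings and filters, a loess offset on length, a replicate block and left-out libraries. Values in every library are given for collagen IV chains and for up to 3 genes of each other group with the smallest p and at least 1 CPM, and up to 3 genes of each further list are named, except 1 that is not reported here. Others given in full, such as Lama5, Agrn and Npnt, were chosen after their values were seen. Promoter windows and microRNAs are from RefSeq (GRCm38.p6), with windows for 26 of the 36 genes. The members and lists were chosen with earlier results of these data known. No test over the list was made. Libraries were not copies of one another (chi-square per degree of freedom of 31.1 or more). The closest pair, at 31.1, was wild-type replicate 2 with knockout replicate 1, which are of different genotype. Wild-type replicate 2 stood at 85.6 and 95.6 from the other wild-type libraries, and knockout replicate 1 at 44.7 and 134 from the other knockout libraries.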

Additional observations from a re-analysis of the deposited data

How the results depend on the processing

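Over the 17 alternatives the median log2 fold change of the 36 genes stayed above 0, between 0.17 (transcript length trend removed) and 0.46 (without wild-type replicate 2), and 21 of the 36 genes kept their sign in all of them. Genes called over the whole table numbered 0 with the main settings, 62 with DESeq2, 3 with limma-voom, 2 with no filter, 1 with the replicate block, 1 with replicate 3 of both groups left out, and 0 to 1 when single libraries were left out. Of the 36, only DESeq2 called any (1, Col15a1). Those higher at an unadjusted p under 0.05 numbered 5 with replicate 3 of both groups left out and 5 to 12 when single libraries were left out. Those with knockout above wild type in every library numbered 11 to 17 when single libraries were left out, against 10.5 to 16.3% of all genes, and 8 with library size alone, against 7.59%. The reverse order was found for 2 of the 36 without wild-type replicate 3, against 15.9% of all genes. With the replicate number as a block, 0 of the 36 were called and 11 were higher at an unadjusted p under 0.05. The share of all genes higher at that p was not counted in the alternatives. Same-numbered libraries deviated from their group means with correlations of -0.28, 0.18 and -0.29, and not every library correlated best with its own number. Deviations from a mean of 3 libraries are tied to one another, so these values cannot decide whether the numbers mark pairs. The other 15 genes turned sign in at least 1 alternative, and the cause was not tested. Their log2 fold changes where the sign turned were, by alternative, upper-quartile factors in place of TMM (Col4a5 -0.027), library size alone in place of TMM (Col4a5 -0.025), limma-voom with quality weights (Col4a5 -0.033, Smoc1 -0.25, Tinagl1 -0.047), filter of 1 CPM in 3 libraries (Col4a5 -0.0035), replicate block (Col4a5 -0.011, Col4a6 0.011), transcript length trend removed (Col4a5 -0.13, Lama1 -0.042, Lamb2 -0.047), replicate 3 of both groups left out (Col4a4 0.057, Lamb2 -0.26, Nid2 -0.19, Tinag 0.49, Tinagl1 -0.15). When single libraries were left out, the ranges of those that turned were Col4a5 -0.14 to 0.18, Col4a6 -0.24 to 0.14, Lama5 -0.35 to 0.011, Agrn -0.16 to 0.094, Col4a4 -0.22 to 0.13, Lamb2 -0.13 to 0.29, Smoc1 -0.36 to 0.72, Tinag -0.49 to 0.28, Lamb3 -0.031 to 0.48, Lamc3 -0.42 to 0.56, Frem1 -0.056 to 0.50, Col4a3 -0.36 to 0.033, Nid2 -0.020 to 0.49, Tinagl1 -0.10 to 0.20. The number of libraries and their spread limit these comparisons, and the weakest of the 36, Smoc1, is the most exposed to counting error.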
